A study of Mus musculus with 13 samples.

Results

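miR-22 was measured in mouse blood plasma through both mature miRNAs cut from its hairpin, mmu-miR-22-3p and mmu-miR-22-5p, which are 2 of the 1907 mature miRNAs in the count table and 2 of the 1203 with any count. They were chosen by name, after both had stood out in the comparison of naive mdx with naive wt mice, so their values in that comparison are given below as a description without a test. Small RNA was sequenced from the plasma of 13 mice, with 1 library per mouse. The Givinostat group held 3 mdx mice dosed by gavage at 37.5 mg/kg with Givinostat, which inhibits histone deacetylases, on 5 days a week for 15 weeks. The vehicle group held 4 mdx mice given 0.5% methylcellulose on the same schedule. The naive mdx group held 3 mdx mice, and the naive wt group 3 wild-type C57BL/10J mice. Mice of these naive groups received no treatment but took the functional tests of grip strength and running. Plasma was sampled after the 15 weeks of dosing. All mice were males bought at 7 to 8 weeks of age. The mdx mice (C57BL10ScSn-Dmdmdx/J) carry a mutation in the dystrophin gene and lack full-length dystrophin. Small RNA libraries hold no dystrophin mRNA and cannot check the genotype, and the strain label is C57BL/10J for all 13 samples, so the groups rest on the sample titles.

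Duchenne muscular dystrophy follows from the loss of dystrophin, which leaves muscle fibres open to damage at each contraction, and miRNAs of muscle then appear in blood. A miRNA hairpin is cut by Drosha and Dicer into a duplex of its 5′ and 3′ arms. Either arm can be loaded into an Argonaute protein, which then represses messenger RNAs that pair with the seed, bases 2 to 8 of the miRNA. miR-22 is conserved among vertebrates and is made in many tissues, with high levels in heart and skeletal muscle. In mouse heart the 3p arm is known to repress Hdac4 and Sirt1, and it takes part in cardiac hypertrophy.

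The sequences below are from RefSeq (GRCm38.p6). The mature arms are shown with the seed in capitals because the seed sets which messenger RNAs each arm can pair with, and the hairpin is shown with both arms in capitals to give their place in it.
mmu-miR-22-3p: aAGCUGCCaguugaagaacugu
mmu-miR-22-5p: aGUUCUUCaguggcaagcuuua
Mir22 hairpin: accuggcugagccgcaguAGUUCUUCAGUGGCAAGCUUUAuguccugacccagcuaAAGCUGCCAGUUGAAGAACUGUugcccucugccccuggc
The hairpin lies on the plus strand of chromosome 11 of GRCm38, from 75463716 to 75463810, and is 95 nt long. mmu-miR-22-3p (MIMAT0000531 in the table) is 22 nt long and covers 75463772 to 75463793, hairpin bases 57 to 78. mmu-miR-22-5p (MIMAT0004629) is also 22 nt long and covers 75463734 to 75463755, hairpin bases 19 to 40. The hairpin sits within an exon of Mir22hg, a non-coding host gene that spans 75461539 to 75466676, and within an exon of 1 annotated transcript, Tlcd2-203, of the protein-coding gene Tlcd2 on the same strand (75461715 to 75470899). The arms have different seeds, and 0 of the other mature miRNAs in the RefSeq table share either seed. Within the duplex, the longest stretch of perfect pairing between the arms is 9 nt, from base 12 to base 20 of the 3p arm and from base 1 to base 9 of the 5p arm. Neither arm's full sequence occurs in any of the other hairpins of the RefSeq table (0 for each). That table matched 1623 of the 1907 miRNAs with counts listed, and the rest of the genome was not searched for copies.

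The total count per library was 1167161 to 2899315 over the 13 mice, with medians of 1381630 with Givinostat, 1416455 with vehicle, 1502944 in naive mdx and 2093376 in naive wt mice. miR-122-5p, the main miRNA of liver, took 2.96% to 6.19% of the counts with Givinostat, 2.98% to 16.1% with vehicle, 1.37% to 10.6% in naive mdx mice and 37.6% to 64.6% in naive wt mice. The muscle list (miR-1a, miR-133a, miR-133b, miR-206, miR-208 and miR-499 arms) took 38.0% to 46.8%, 35.5% to 42.6%, 28.3% to 39.7% and 0.707% to 2.09% of the counts in the same order of groups. The CPM (counts scaled to a common library size) below were scaled by TMM, a factor per library that sets aside miRNAs of extreme change, and the factors ranged from 0.733 to 1.37. Where CPM by library total gave another picture, both are printed.

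miR-22-3p was among the most abundant miRNAs of plasma in mdx mice and far less so in wt mice. By count it ranked between the 5th and 7th place of its library with Givinostat, the 5th and 6th with vehicle, the 3rd and 5th in naive mdx mice, and the 16th and 17th in naive wt mice. It took 3.36%, 4.02% and 4.15% of all counts in the Givinostat libraries, and 3.73% to 5.41% (median 4.03%) with vehicle. In naive mdx mice its share was 5.98%, 6.09% and 7.18%, and in naive wt mice 0.644%, 0.709% and 1.01%. By mean CPM over the 13 libraries it stood 6th at 37439 CPM, after the muscle miRNAs miR-1a-3p (74335 CPM) and miR-133a-3p (70956 CPM) and after miR-99a-5p (47059 CPM), and ahead of miR-30d-5p (34074 CPM). miR-22-5p stood 68th at 1289 CPM by that mean. Within single libraries it ranked between the 56th and 66th place with Givinostat, the 55th and 64th with vehicle, the 44th and 70th in naive mdx mice, and the 115th and 120th in naive wt mice. Both arms are of equal length, but adapter ligation favours some small RNA ends over others, and its part in the distance between the arms was not tested.

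In single mice, miR-22-3p had 35562, 35890 and 45953 TMM CPM with Givinostat, 36887, 37206, 48682 and 48704 TMM CPM with vehicle, 44520, 50523 and 76333 TMM CPM in naive mdx mice and 8263, 8784 and 9405 TMM CPM in naive wt mice. The 3 groups of mdx mice overlapped with each other, and every mdx mouse lay far above every wt mouse. What share of all tested miRNAs likewise separated mdx from wt mice was not computed. For scale, edgeR called 24.2% of them higher with vehicle and 22.6% with Givinostat than in naive wt mice. miR-22-5p had 1151, 1576 and 1739 TMM CPM with Givinostat, 1356, 1504, 1596 and 1724 TMM CPM with vehicle, 1196, 1590 and 2702 TMM CPM in naive mdx mice and 175, 188 and 253 TMM CPM in naive wt mice. The pattern was that of the 3p arm, and the same naive mdx mouse, mouse 37, was highest in both. Group means placed naive mdx first, then vehicle, Givinostat and wt for both arms, but only the step between Givinostat and wt was wider than the spread between mice. miR-22-3p averaged 39135 ± 5907 TMM CPM with Givinostat (SD, n = 3), 42870 ± 6725 with vehicle (SD, n = 4), 57125 ± 16903 in naive mdx (SD, n = 3) and 8817 ± 571 in naive wt mice (SD, n = 3). miR-22-5p averaged 1489 ± 304, 1545 ± 155, 1830 ± 781 and 205 ± 41.6 TMM CPM in the same order.

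**Figure D1:**
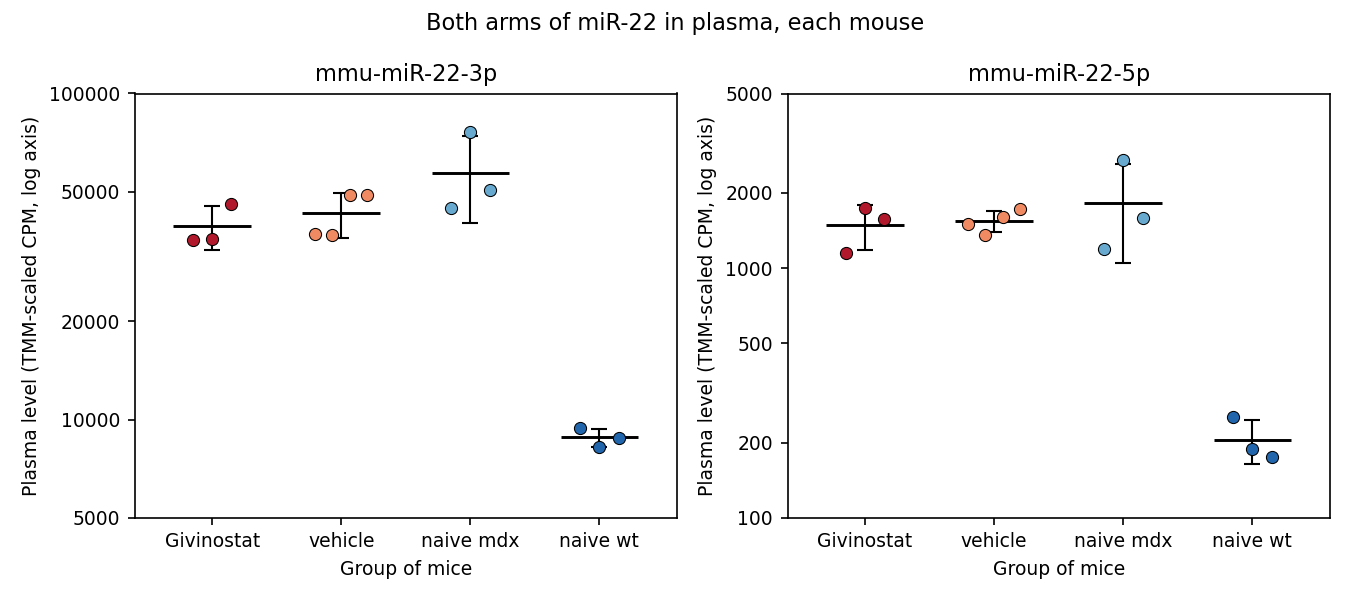
Plasma level of mmu-miR-22-3p (left panel) and mmu-miR-22-5p (right panel) in TMM-scaled CPM on a log axis, with 1 point per mouse, the group mean as a bar and the SD as whiskers, for Givinostat (3 mice), vehicle (4), naive mdx (3) and naive wt (3). All mdx mice lie at or above 35562 CPM for the 3p arm and 1151 CPM for the 5p arm, and all wt mice at or below 9405 and 253 CPM, while the 3 mdx groups overlap. What share of all tested miRNAs separates mdx from wt mice in this way was not computed.

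Givinostat and vehicle mice were compared to ask whether the drug changed plasma miR-22 in dystrophic mice. This is the comparison that shares no mouse with the choice of the members. Neither arm passed the test: the log2 fold change, Givinostat over vehicle, was -0.13 for miR-22-3p (SE 0.23, 95% interval -0.63 to 0.37, adjusted p = 0.939 by edgeR's quasi-likelihood test over 368 miRNAs). For miR-22-5p it was -0.05 (SE 0.26, interval -0.61 to 0.51, edgeR adjusted p = 0.990). With 3 and 4 mice, changes within those intervals remain compatible with the data. As background, edgeR called 0.272% of the tested miRNAs in either direction in this comparison, which is 1 miRNA, miR-92b-3p, named after its value was seen. DESeq2 called 2, which were miR-34c-5p and the same miR-92b-3p, and gave -0.14 for the 3p and -0.06 for the 5p arm of miR-22. With the log2 ratio of miR-451a, a miRNA of red blood cells, to miR-23a-3p as a covariate, a ratio used to follow haemolysis, the fold changes turned to 0.43 for the 3p and 0.53 for the 5p arm, without passing the test (adjusted p = 0.944 for both). Without Givinostat mouse 31 the 5p arm was at 0.07.

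The covariate did not overlap between these groups, with 0.345 to 0.620 counts of miR-451a per count of miR-23a-3p with Givinostat and 0.228 to 0.314 with vehicle. miR-451a itself averaged 4757 TMM CPM with Givinostat and 2817 TMM CPM with vehicle, a log2 fold change of 0.76 (SE 0.22, edgeR adjusted p = 0.255). The red blood cell list took 1.05% to 1.23% of the counts with Givinostat and 0.709% to 1.36% with vehicle, and 0 of its 5 members passed edgeR's test, while of all 368 miRNAs 15 had a higher and 10 a lower level by the unadjusted p (under 0.05). miR-22 is also made in blood cells, and the part of haemolysis in the plasma levels was not tested.

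Ratios to other miRNAs of the same library need no scaling, and they were formed for miR-22-3p with 5 other miRNAs. Some of their sources, such as muscle and blood cells, also make miR-22. Against miR-23a-3p, which is made in many tissues, miR-22-3p stood at 3.53 to 4.67 counts per count with Givinostat and 3.25 to 4.69 with vehicle, a log2 difference of 0.01 (exact permutation p = 1, two-sided). Against miR-16-5p, a blood cell miRNA, it stood at 34.2 to 56.0 and 41.0 to 85.1, a difference of -0.44 (exact permutation p = 0.286). Against the red cell miR-451a it stood at 6.46 to 13.5 with Givinostat and 11.1 to 20.6 with vehicle, the widest distance of the 5 at -0.86 (exact permutation p = 0.171). Against the muscle miR-206-3p it stood at 0.132 to 0.222 and 0.166 to 0.289 (difference -0.27, exact permutation p = 0.40), and against the liver miR-122-5p at 0.649 to 1.4 and 0.258 to 1.75 (difference 0.17, exact permutation p = 0.80). The groups overlapped for all 5 ratios, and the p-values adjusted over the 5 were 0.667 to 1. With 3 against 4 mice the smallest p this exact test allows, by doubling the one-sided p, is 0.0571. None could therefore have passed 0.05 under it.

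**Figure D2:**
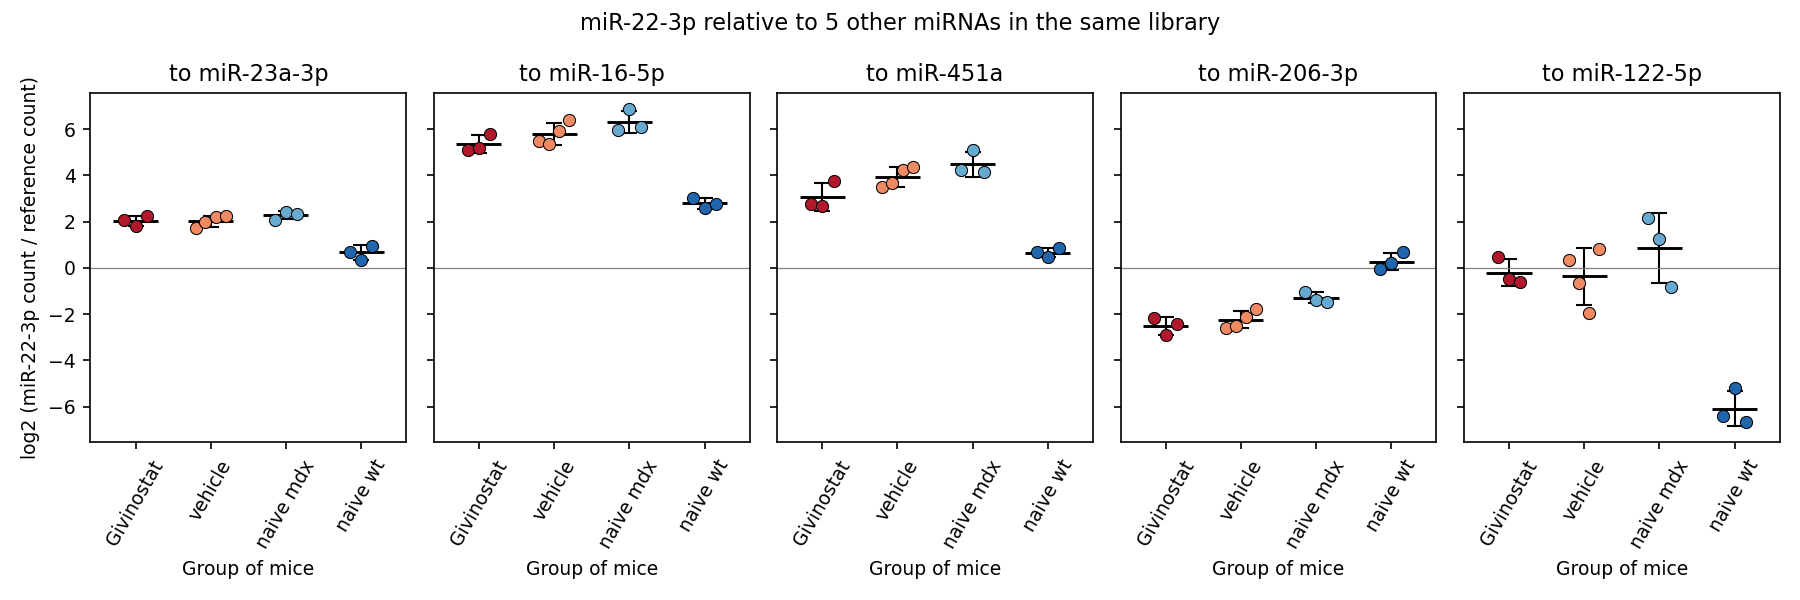
The log2 ratio of the miR-22-3p count to the count of 5 other miRNAs in the same library, with 1 point per mouse, the group mean as a bar and the SD as whiskers. Givinostat and vehicle mice overlap in all 5 panels. Naive wt mice lie below all mdx mice in the panels of miR-23a-3p, miR-16-5p, miR-451a and miR-122-5p, and above them in that of miR-206-3p.

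Both dosed groups were set against naive mdx mice to ask whether 15 weeks of gavage went with another level of miR-22. These comparisons share the 3 naive mdx mice with each other and with the choice of the members. The choice favours members that were high in those mice, which by itself pushes these fold changes below 0. Their p-values and intervals are therefore not free of the choice. For vehicle over naive mdx the log2 fold change was -0.41 for miR-22-3p (SE 0.23, interval -0.91 to 0.08, edgeR adjusted p = 0.801) and -0.24 for miR-22-5p (SE 0.26, interval -0.80 to 0.31, edgeR adjusted p = 0.823). For Givinostat over naive mdx it was -0.55 for miR-22-3p (SE 0.25, interval -1.08 to -0.01, unadjusted p = 0.0448, edgeR adjusted p = 0.365) and -0.30 for miR-22-5p (SE 0.28, interval -0.90 to 0.30, edgeR adjusted p = 0.661). Of all tested miRNAs, edgeR called 0% in either comparison. By an unadjusted p under 0.05, 10 miRNAs had a higher and 7 a lower level in vehicle than in naive mdx mice, and DESeq2 made 0 calls. For Givinostat against naive mdx these numbers were 20 and 28, and DESeq2 made 2 calls, miR-451a and miR-92b-3p. Both arms lay below the median log2 fold change of all tested miRNAs, which was -0.13 for vehicle and -0.08 for Givinostat over naive mdx.

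These distances varied with the scaling, the covariate and 1 mouse. With the miR-451a to miR-23a-3p covariate, the log2 fold changes for Givinostat over naive mdx turned to 0.23 for miR-22-3p and 0.52 for miR-22-5p (edgeR adjusted p = 0.944 and 0.900). As a plain share of the library, miR-22-3p did not overlap between the dosed and the naive mdx mice: 33575 to 41476 CPM by library total with Givinostat and 37319 to 54103 with vehicle, against 59769 to 71816 CPM in naive mdx mice. By library total miR-22-5p had 1342 to 1627 CPM with Givinostat, below the 1636 to 2542 CPM of naive mdx mice, while the 1362 to 1915 CPM with vehicle overlapped them. The share of all tested miRNAs that likewise did not overlap was not computed. In that scaling 2 miRNAs were higher and 16 lower with vehicle at an unadjusted edgeR p under 0.05. With Givinostat these were 8 and 42. By library total the fold changes of miR-22-3p over naive mdx were -0.58 for vehicle (edgeR adjusted p = 0.653) and -0.74 for Givinostat (edgeR adjusted p = 0.272), but the median of all tested miRNAs also moved, to -0.34 and -0.32. Without naive mdx mouse 37, which had the highest level of both arms, the TMM fold changes of miR-22-3p were -0.12 for vehicle and -0.28 for Givinostat, and those of miR-22-5p turned to 0.17 and 0.09.

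In mdx mice that did not enter the choice of the members, both arms were higher than in wt mice. The 3 wt mice did enter the choice and are shared by the next comparisons. The choice favours members that were low in those wt mice, which by itself raises the fold changes over wt. The p-values and intervals over wt are therefore not free of the choice. The dosed mice were gavaged while the wt mice were not. Naive mdx mice, which were not gavaged, also lay above all wt mice (44520 to 76333 against 8263 to 9405 TMM CPM of miR-22-3p), as the values that chose the members. Over naive wt, miR-22-3p rose 4.86-fold in vehicle mice (log2 2.28, SE 0.25, interval 1.75 to 2.82, edgeR adjusted p = 2.92e-06), and miR-22-5p rose 7.53-fold (log2 2.91, SE 0.30, interval 2.29 to 3.54, edgeR adjusted p = 1.11e-06). In Givinostat mice miR-22-3p rose 4.44-fold over naive wt (log2 2.15, SE 0.26, edgeR adjusted p = 9.10e-06) and miR-22-5p 7.25-fold (log2 2.86, SE 0.30, edgeR adjusted p = 2.43e-06). Higher calls made up 24.2% of the 368 tested miRNAs for vehicle and 22.6% for Givinostat over naive wt, so a call alone does not set miR-22 apart. By size of the log2 fold change, miR-22-3p stood 39th and miR-22-5p 31st from the highest for vehicle, and 37th and 25th for Givinostat. In plasma, the number of cells that release a miRNA and the amount each releases cannot be told apart.

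In the comparison that chose the members, naive mdx over naive wt, the fitted log2 fold changes were 2.70 for miR-22-3p (SE 0.27, 6.48-fold) and 3.16 for miR-22-5p (SE 0.31, 8.92-fold), with 26.9% of the tested miRNAs called higher.

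**Figure D3:**
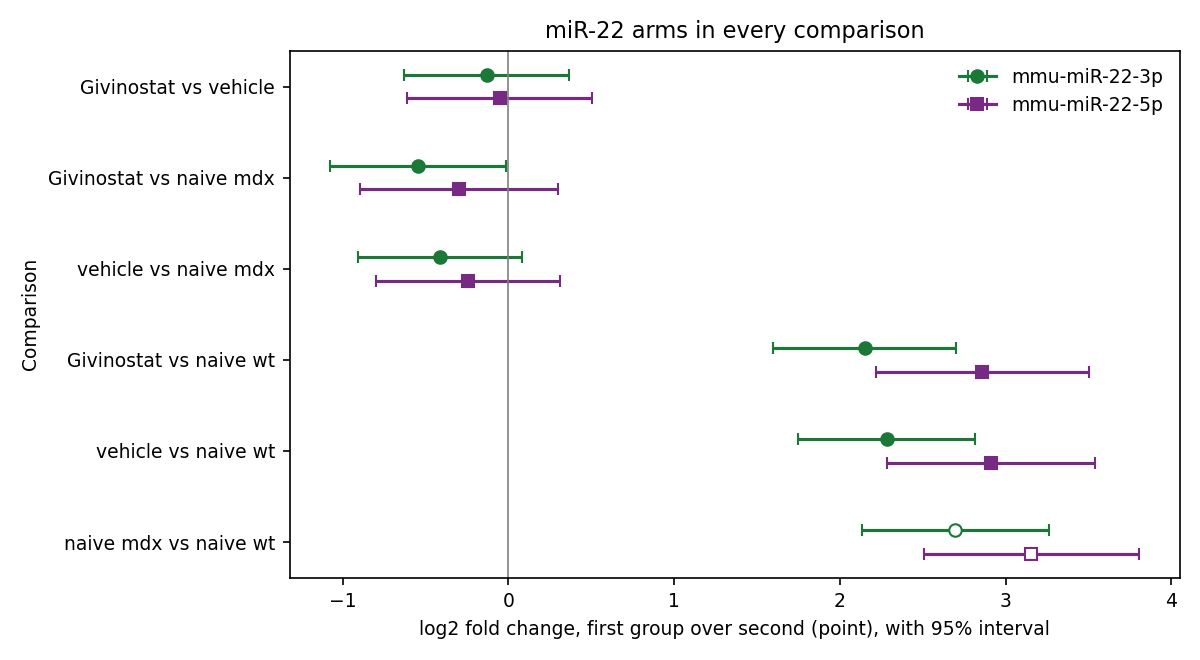
The log2 fold change of mmu-miR-22-3p (circles) and mmu-miR-22-5p (squares), first group over second, with its 95% interval from the edgeR fit, in 6 comparisons. Open symbols mark naive mdx over naive wt, which chose the members and has no test. The naive wt mice of the other comparisons over wt also entered the choice. The intervals for Givinostat over vehicle span 0 for both arms, and all those over naive wt lie above 0.

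The size of the difference from wt was smaller when miR-122-5p was left out of the counts and library totals were used. The log2 fold change over naive wt was then 1.42 for miR-22-3p and 2.06 for miR-22-5p in vehicle mice, and 1.21 and 1.92 in Givinostat mice, all past the test, while the median of all tested miRNAs moved to -0.98 for vehicle and -1.01 for Givinostat. By library total with miR-122-5p kept, the log2 values were 2.45 and 3.09 with vehicle and 2.28 and 2.99 with Givinostat. With miR-122-5p and the muscle list both left out of the totals they were 2.18 and 2.81 with vehicle and 2.06 and 2.77 with Givinostat, near those under TMM. Under TMM 89 miRNAs were called higher and 85 lower for vehicle over naive wt, by library total 88 and 44, and without miR-122-5p 48 and 204. For Givinostat over naive wt these calls were 83 and 43, 77 and 18, and 36 and 211. With the miR-451a to miR-23a-3p covariate, the calls for vehicle were lost (log2 1.04 with adjusted p = 0.579 for the 3p arm, and 1.64 with adjusted p = 0.410 for the 5p arm), while those for Givinostat were kept (1.47 with adjusted p = 0.0104, and 2.17 with adjusted p = 0.00321, all by edgeR). Both miRNAs of the covariate differed from wt: miR-451a was lower in vehicle than in wt mice (2817 and 5610 TMM CPM, log2 -0.99, edgeR adjusted p = 0.00163), and miR-23a-3p was higher (10492 and 5623 TMM CPM, log2 0.90, edgeR adjusted p = 0.00264). Their ratio was 0.345 to 0.620 with Givinostat and 0.228 to 0.314 with vehicle, against 0.927 to 1.08 in naive wt mice, with no overlap.

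The distance from wt was also seen against single miRNAs of the same library, given here without a test. miR-22-3p had 3.53 to 4.67 counts per count of miR-23a-3p with Givinostat, 3.25 to 4.69 with vehicle and 4.24 to 5.38 in naive mdx mice, against 1.27 to 1.95 in naive wt mice. Against miR-206-3p the order was the other way round, with 0.132 to 0.222 with Givinostat, 0.166 to 0.289 with vehicle and 0.359 to 0.490 in naive mdx mice, against 0.959 to 1.60 in naive wt mice. miR-206-3p is a miRNA of regenerating fibres, and its distance from wt exceeded that of miR-22-3p in every mdx mouse.

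miR-22-5p made up a small share of the hairpin's counts in all mice, and the share was lower in wt mice. Of the counts of both arms, the 5p arm took 3.13% (Wilson 95% interval 3.00 to 3.28), 4.62% (4.44 to 4.81) and 3.32% (3.17 to 3.47) in Givinostat mice 31, 34 and 35. With vehicle it took 3.89% (3.73 to 4.05), 3.55% (3.39 to 3.71), 3.17% (3.04 to 3.31) and 3.42% (3.29 to 3.55) in mice 40, 41, 42 and 43. In naive mdx mice 36, 37 and 39 it took 2.62% (2.50 to 2.74), 3.42% (3.31 to 3.53) and 3.05% (2.94 to 3.16). In naive wt mice 86, 89 and 95 it took 2.62% (2.37 to 2.88), 2.22% (2.00 to 2.47) and 1.95% (1.77 to 2.16), on 333 to 399 counts of the 5p arm. These intervals cover counting error only, since the reads carry no molecular identifiers. All 7 dosed mdx mice had a larger 5p share than all 3 wt mice, and naive mdx mouse 36 had that of wt mouse 86.

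Expressed as counts of the 3p arm per count of the 5p arm, the ratio was 20.6, 29.2 and 30.9 with Givinostat, 24.7, 27.2, 28.2 and 30.5 with vehicle, 28.2, 31.8 and 37.2 in naive mdx mice and 37.2, 44.0 and 50.2 in naive wt mice. Its log2 was tested in 4 comparisons over mice, without the naive mdx group. Givinostat and vehicle averaged 4.73 ± 0.31 (SD, n = 3) and 4.79 ± 0.13 (SD, n = 4), a difference of -0.06 (exact permutation p = 0.80, two-sided, adjusted 0.80). The 7 dosed mdx mice averaged 4.76 ± 0.20 and the 3 naive wt mice 5.44 ± 0.22 (SD), a difference of -0.68 with no overlap (exact permutation p = 0.0167, the smallest this test allows, adjusted p = 0.0667 over the 4). Vehicle over wt alone differed by -0.66 (exact permutation p = 0.0571, adjusted 0.114) and Givinostat over wt alone by -0.71 (exact permutation p = 0.100, adjusted 0.133), both at the smallest p this test allows at their sizes. None of the 4 passed 0.05 after adjustment, and none could have under this test. It doubles the one-sided p, so its adjusted p could not fall below 0.0667 here, even with no overlap. This floor comes from the form of the test as well as from the group sizes, and no conclusion is drawn from it.

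**Figure D4:**
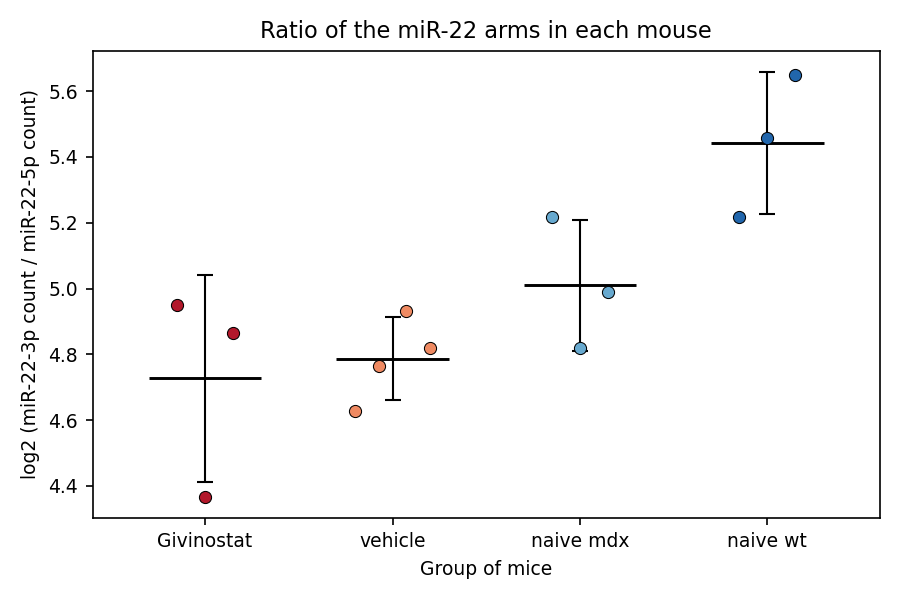
The log2 ratio of the miR-22-3p count to the miR-22-5p count, with 1 point per mouse, the group mean as a bar and the SD as whiskers. The 7 dosed mdx mice, averaging 4.76, lie below all 3 naive wt mice, averaging 5.44, and naive mdx mice reach into the wt range.

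Such a shift was not rare among the 95 hairpins with both arms tested. The log2 ratio of 3p to 5p differed between dosed mdx and wt mice by a median of 0.51 in absolute size, it was lower in dosed mdx mice for 38 of the 95, and 30 hairpins had a larger absolute shift than miR-22. miR-22 ranked 33rd by the distance between its arms, at 31.4-fold against a median of 10.7-fold. Both arms were called higher than in wt for 13 of the 95 hairpins, or 13.7%, in each of the vehicle and the Givinostat comparisons. Besides miR-22, those called in both were miR-27b, miR-29c, miR-30a, miR-133a, miR-193b, miR-361, miR-378a, miR-483, miR-486b, miR-675 and miR-7068. miR-133a is a muscle miRNA, and miR-378a lies in an intron of Ppargc1b. The pairs were listed after their values were seen.

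Over the 10 mdx mice, the levels of the arms went together, but the relation did not hold without 2 of the mice. The log2 TMM CPM of miR-22-3p and miR-22-5p correlated with Pearson's r = 0.778 (permutation p = 0.0311) and Spearman's rho = 0.576 (permutation p = 0.0886). Without Givinostat mouse 31 and naive mdx mouse 37, the mice farthest from the median of the 3p arm, r was 0.142 (exact permutation p = 0.731), and leaving out the extremes also narrows the range over which it is computed. With each group centred on its own mean, r was 0.816 (permutation p = 0.00328) and rho 0.806 (permutation p = 0.00714). The centred values were shuffled over all 10 mice and not within groups, so these p-values may be too small. The arms share a library and its scaling factor, and no batch is named in the labels within which the relation could be repeated.

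The miRNAs whose level was most like miR-22-3p over the same 10 mdx mice, by Pearson's r of log2(TMM CPM + 1), were miR-191-3p (0.94), miR-1843a-3p (0.90), miR-24-3p (0.78), miR-23a-3p (0.77) and miR-7689-3p (0.77). Those most like miR-22-5p were miR-30a-5p (0.89), miR-133a-5p (0.86), miR-23a-3p (0.82), miR-191-3p (0.78) and let-7f-1-3p (0.77). Among all tested miRNAs, the other arm of the hairpin came 4th for the 3p arm and 5th for the 5p arm. The libraries and their scaling are shared by all points, and miR-23a-3p and miR-191-3p were near both arms.

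Most of the muscle miRNAs were called higher than in wt. Of the muscle list of 12, 8 were tested, and 7 were called higher in vehicle and 7 in Givinostat mice than in naive wt mice, beside 24.2% and 22.6% of all tested miRNAs. The list's median log2 fold changes were 4.88 and 4.95, where the medians of all tested miRNAs were -0.11 and -0.10. The member that did not pass was miR-499-5p (0.68 for vehicle and 0.75 for Givinostat, below both arms of miR-22). miR-208b-3p, at 2.80 (SE 0.56) and 2.42 (SE 0.60), lay between the arms of miR-22. Its mean in naive wt mice was only 1.38 TMM CPM, where 3 counts are 1.03 to 2.07 CPM by library total, so its place is imprecise. miR-1a-1-5p likewise averaged only 1.78 TMM CPM in naive wt mice. Both were kept by the filter through the mdx mice, where they are high. Their calls, and their part in the list's count and median, are therefore partly set by the filter. miR-206-3p had 227670 TMM CPM with Givinostat, 202920 with vehicle and 7514 in naive wt mice, and its log2 fold change over wt was 4.92 for Givinostat (SE 0.37) and 4.76 for vehicle (SE 0.36), against 2.15 and 2.28 for miR-22-3p. Between Givinostat and vehicle 0 of the 8 passed edgeR's test, with a median of 0.06 beside -0.02 for all tested miRNAs.

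miR-22-3p is grouped by its known target with other miRNAs reported to repress Hdac4, namely miR-1a-3p, miR-206-3p, the miR-29 family and miR-140-5p, all 6 of which were tested. Of these, 4 were called higher and 0 lower than in naive wt mice with vehicle (median log2 1.04) and likewise with Givinostat (median 1.08), beside 24.2% and 22.6% of all tested miRNAs called higher and medians of -0.11 and -0.10. miR-29a-3p had 6259 TMM CPM with Givinostat, 6360 with vehicle and 3243 in naive wt mice (log2 0.95 and 0.97, edgeR adjusted p = 0.00779 and 0.00315). miR-140-5p, which is known from cartilage, had 265 TMM CPM with Givinostat, 299 with vehicle and 350 in naive wt mice, and did not pass (edgeR adjusted p = 0.201 and 0.394). Between Givinostat and vehicle 0 of the 6 passed edgeR's test, with a median of 0.07.

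The liver list fell in the same mice in which miR-22 rose: all 4 of its members were lower than in naive wt mice with vehicle and with Givinostat (median log2 -2.32 and -2.61), where 23.1% and 11.7% of all tested miRNAs were called lower and their medians were -0.11 and -0.10. The list took 3.36% to 6.69% of the counts with Givinostat and 3.29% to 16.6% with vehicle, against 38.8% to 65.5% in naive wt mice. The red blood cell list took 1.05% to 1.23% with Givinostat and 0.709% to 1.36% with vehicle, against 0.499% to 1.05% in naive wt mice. Of its 5 members, 2 were higher with vehicle, miR-486a-5p and miR-486b-5p, which muscle also makes and whose sequences are so alike that their reads could be split between them, and 3 were lower. With Givinostat 2 were higher and 2 lower. Of all tested miRNAs, 24.2% were called higher and 23.1% lower with vehicle, and 22.6% and 11.7% with Givinostat. The myeloid list took 0.302% to 0.595% with Givinostat and 0.310% to 0.426% with vehicle, against 0.392% to 0.737%, and the endothelial list 0.348% to 0.848% and 0.370% to 1.09%, against 0.494% to 1.25%. Of the 4 myeloid miRNAs, 3 were lower than in wt with vehicle and 1 with Givinostat, and neither endothelial miRNA passed edgeR's test in either comparison. None of these lists had a defining marker at 0, and their part in the level of miR-22 was not tested.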

How the data were processed

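Plasma small RNA libraries (miRNeasy Serum/Plasma and NEBNext kits, NextSeq 500) were mapped by the authors with Bowtie to GRCm38, and reads were assigned to mature miRNAs of miRBase release 21. The submitters' processing notes list Bowtie 1.0.0, bcl2fastq 1.37.0 and cutadapt 1.4.2, while the methods name Trimmomatic for trimming. The deposited counts are raw whole numbers per mature miRNA. The deposited log2 values equal the log2 of the count plus a constant per library, with none for counts of 3 or fewer, and served only as an alternative.

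Counts were scaled by TMM, filtered with filterByExpr (minimum count 10, which kept 368 miRNAs) and fitted with edgeR 4.0.16 under R 4.3.3 (glmQLFit with legacy = FALSE, 1 mean per group, 13 libraries). P-values were Benjamini-Hochberg adjusted over all tested miRNAs, and calls were made under 0.05. Replicates are separate mice. Total counts of 1167161 to 2899315 per library limited precision less than the number of mice did, and all 15 pairs of libraries within groups differed. Exact permutation tests, two-sided, compared the ratios over mice (scipy 1.17.1), and arm correlations were tested with 100000 permutations. The arm ratios over all hairpins used a pseudocount of 0.5. The log2 values were put back on the linear scale and tested with limma 3.58.1 at pseudocounts of 1 and 5. Other alternatives were DESeq2 1.42.0, other scalings and filters, a miR-451a to miR-23a-3p covariate, other groupings and leaving out each mouse. The code was tested on simulated data.

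The named miRNAs are both arms, the 5 nearest to each by correlation, the 5 references of the ratios and at most 4 of each list. Others, among them the hairpins with both arms called higher, were chosen after their values were seen. The members and lists were chosen with earlier results of these data known.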

Additional observations from a re-analysis of the deposited data

How the results depend on the processing

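The comparison of Givinostat with vehicle stayed under the threshold for both arms in all alternatives, with fold changes of -0.33 to 0.43 for miR-22-3p and -0.18 to 0.53 for miR-22-5p. With the miR-451a to miR-23a-3p covariate the sign turned (0.43 for the 3p and 0.53 for the 5p arm against vehicle, 0.23 and 0.52 against naive mdx), and the calls of vehicle over naive wt were lost (1.04 and 1.64). Upper-quartile factors gave 0.0428 for miR-22-5p against vehicle. As a difference of medians, the Givinostat against vehicle values were 0.0730 for the arm ratio, -0.0277 for the ratio to miR-23a-3p and -0.30 for that to miR-122-5p. The cause of these changes was not tested.

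For naive mdx over naive wt, miR-22-3p was at 3.02 by library total, 3.05 with limma at either pseudocount, 1.96 without miR-122-5p and 1.25 with the covariate, and miR-22-5p at 2.41 and 1.65 in the last pair of settings. The number of miRNAs called for Givinostat against vehicle, 1 in the main fit, was 3 with upper-quartile factors, 2 by library total, 2 without miR-122-5p, 2 without miR-122-5p and the muscle list in the totals, 6 without a filter, 0 with a mean of at least 10 CPM, 2 with DESeq2, 2 with robust estimation, 0 with limma, 0 with the covariate and 4 with naive mdx and vehicle joined. For Givinostat against naive mdx it was 11 without a filter and 2 with DESeq2. Over naive wt, with the covariate 2, 22 and 1 were called for vehicle, Givinostat and naive mdx, where the main fit called 174, 126 and 160. For Givinostat it was 247 without miR-122-5p, and 83 and 82 with limma.

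Leaving out each mouse in turn gave -0.33 to -0.06 for miR-22-3p and -0.18 to 0.0733 for miR-22-5p (Givinostat against vehicle), -0.55 to -0.12 and -0.46 to 0.17 (vehicle against naive mdx), and -0.71 to -0.28 and -0.55 to 0.0881 (Givinostat against naive mdx). Over naive wt, miR-22-3p stayed at 2.21 to 2.53 with vehicle and 1.98 to 2.26 with Givinostat, and miR-22-5p at 2.88 to 3.14 and 2.77 to 3.03, all past the threshold. The arm ratio ranged from -0.17 to 0.12 for Givinostat against vehicle, 0.12 being without Givinostat mouse 34. The ratio to miR-23a-3p ranged from -0.10 to 0.12 and that to miR-122-5p from -0.36 to 0.56. Calls ranged from 0 to 6 for Givinostat against vehicle and from 0 to 3 for Givinostat against naive mdx. No paired analysis was possible because the groups share no animal numbers.

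Among the mdx groups, with 3 or 4 mice a group, changes of miR-22 within the 95% intervals of the report remain compatible with the data. The intervals against naive mdx mice are not free of the choice of the members. Counts per mouse were high enough (333 or more) that mice, not depth, set the error.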
